A study of Homo sapiens with 12 samples.

Results

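Genes that cells are known to switch on when oxygen runs low were followed here in cells given more oxygen than normal. The members were ADM, VEGFA, SLC2A1, SLC2A3, NDRG1, BNIP3, BNIP3L, PDK1, ANGPTL4 and STC2, matched by gene symbol, so they were 10 of the 59577 genes in the deposited table. Of these 10, 9 reached the minimum mean level for testing, as did 14520 genes in all. The remaining member, NDRG1, was listed at 0 in every sample. The study exposed H1299 cells, an established human non-small cell lung carcinoma line, to raised oxygen and sequenced their bulk RNA. Hyperoxia was 60% O2 with 5% CO2 and 35% N2 for 24 h, in 6 samples. Normoxia was 21% O2 with 5% CO2 and 74% N2, also for 24 h and in 6 samples. Both groups were the same unmodified line, and the labels name no other agent. Whether replicates were grown as separate cultures is not in the labels, and a p-value here then measures the scatter among these samples alone, which could be technical. The comparison asks which hypoxia-induced transcripts were lower or higher at 60% oxygen and which did not pass a test.

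Cells sense oxygen through prolyl hydroxylases, enzymes that use oxygen to mark the alpha subunits of the hypoxia-inducible factors (HIF) for destruction. When oxygen falls the alpha subunits persist, pair with ARNT and bind a short DNA core, ACGTG or GCGTG, near their target genes. Targets bring more blood and glucose to the tissue and turn metabolism away from the mitochondria. Many of them also answer to other regulators, among them ATF4 of the amino acid and unfolded protein responses.

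Levels were deposited as TPM, transcript abundances for gene length and to a common total. The TPM of a sample summed to between 996138 and 998797, and TPM keep no sequencing depth, so the depth is unknown. Of the epithelial markers, the keratins KRT8 and KRT18 averaged 592 and 947 TPM in hyperoxia and 603.5 and 955 TPM in normoxia. The other epithelial markers, KRT19, EPCAM and CDH1, averaged under 1 TPM in both groups, so the list was split. Summed over their list, endothelial markers reached between 0.24 and 1.71 TPM in hyperoxia and between 0.25 and 1.09 TPM in normoxia, and fibroblast markers between 1.15 and 2.31 TPM in hyperoxia and between 1.71 and 2.68 TPM in normoxia. Immune markers summed to between 39.5 and 51.2 TPM in hyperoxia and between 39.8 and 50.7 TPM in normoxia, nearly all of it CD68, a lysosomal glycoprotein gene, at 44.5 TPM in hyperoxia and 44.5 TPM in normoxia on average, and the other 5 averaged under 1 TPM, with CD3E listed at 0 throughout. Lung adenocarcinoma markers summed to between 3.23 and 5.84 TPM in hyperoxia and between 3.36 and 5.05 TPM in normoxia, mostly KRT7, with SFTPC listed at 0 throughout. On the first principal component, with 20.7% of the variance, normoxia replicates 4 to 6 lay farther from hyperoxia (-0.37, -0.55 and -0.31) than normoxia replicates 1 to 3 (-0.09, -0.09 and -0.16). On the second, with 11.7%, replicates 1 to 3 lay apart (-0.21, -0.38 and -0.67). There normoxia replicates 4 to 6 (0.19, 0.38 and 0.04) lay nearer to hyperoxia (-0.03 to 0.34). Values against either set of 3 normoxia samples are given where they move a result.

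The classic hypoxia targets did not move together. Of the 9 tested, 3 rose at 60% oxygen (SLC2A3, ADM and BNIP3), 1 fell (STC2) and 5 did not pass the test, where 17.3% of all tested genes passed it in either direction, 11.7% higher and 5.63% lower. Higher genes made up 67.5% of all calls, 51.7% after median-of-ratios scaling and 54.3% after quantile normalisation, and the 4 called members were called under each. The median log2 fold change of the 9 was 0.10, beside 0.03 over all tested genes. Fold changes are hyperoxia minus normoxia on the log2(TPM + 1) scale, which understates changes of low genes, and a call is a Benjamini-Hochberg adjusted p under 0.05 in limma over all 14520 genes. Relative levels in bulk RNA cannot tell apart fewer cells that express a gene from less of its RNA per cell.

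**Figure D1:**
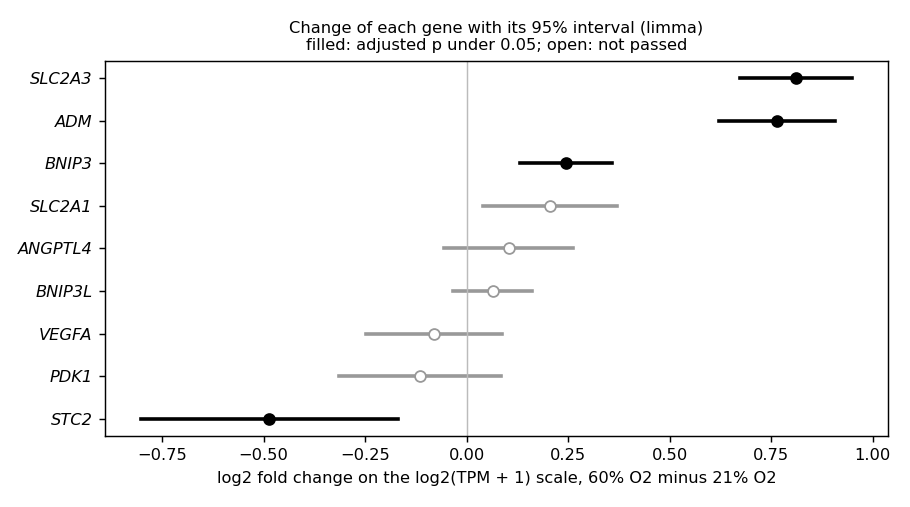
Log2 fold change of the 9 tested genes, 60% O2 minus 21% O2 on the log2(TPM + 1) scale (horizontal axis), with 95% intervals from limma; filled points passed an adjusted p of 0.05. SLC2A3 (0.81) and ADM (0.76) lie well to the right of 0, BNIP3 (0.24) less far, and STC2 (-0.49) lies to the left with the widest interval.

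Promoter sequences are shown for called members, to place the HIF core in the genes that rose or fell. RefSeq promoter records (GRCh38.p14) matched 6 of the 10 members: ADM, SLC2A1, BNIP3, PDK1, ANGPTL4 and STC2. Each line below gives the 250 bases before the start of the gene, 5′ to 3′ on the strand of the gene, with matches to ACGTG or GCGTG on either strand in capitals (read on the opposite strand they appear as CACGT or CACGC). They are chr11:10304823-10305072 on the plus strand for ADM, chr10:131981924-131982173 on the minus strand for BNIP3 and chr5:173328415-173328664 on the minus strand for STC2.
ADM: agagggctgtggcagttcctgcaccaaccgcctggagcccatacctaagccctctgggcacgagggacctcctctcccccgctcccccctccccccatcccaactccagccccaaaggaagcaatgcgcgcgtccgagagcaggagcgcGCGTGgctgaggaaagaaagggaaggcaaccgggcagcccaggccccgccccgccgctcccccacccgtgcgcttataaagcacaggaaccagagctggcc
BNIP3: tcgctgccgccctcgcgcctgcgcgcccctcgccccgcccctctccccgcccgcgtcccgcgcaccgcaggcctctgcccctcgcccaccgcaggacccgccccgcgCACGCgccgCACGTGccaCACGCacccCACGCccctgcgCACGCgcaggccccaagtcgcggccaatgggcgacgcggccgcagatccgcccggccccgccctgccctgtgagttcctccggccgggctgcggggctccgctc
STC2: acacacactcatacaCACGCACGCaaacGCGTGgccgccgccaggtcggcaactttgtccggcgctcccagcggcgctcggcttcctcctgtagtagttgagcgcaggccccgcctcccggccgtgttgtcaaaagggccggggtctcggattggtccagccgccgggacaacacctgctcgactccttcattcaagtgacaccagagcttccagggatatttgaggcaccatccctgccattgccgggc
The ADM window held 1 match, 101 bases before the start. The BNIP3 window held 6, between 143 and 104 bases before the start, of which those at 134 and 133 are the opposite strands of 1 palindrome and overlap. STC2, the member that fell, held 3, at 235, 231 and 222 bases before the start, of which the first pair share a base, so the core was present both in genes that rose and in the gene that fell. At least 1 match was held by 43.2% of all 35116 promoter windows, at least 3 by 7.76% and at least 6 by 0.646%. Among members that did not pass, ANGPTL4 held 1 match, SLC2A1 held 0, and of the 2 PDK1 windows 1 held 2 matches and the other 0. The antioxidant response core TGACNNNGC, found in 10.9% of all windows, and the amino acid response core TTGCATCA, found in 0.772%, were in none of the windows of these 6 members. A match describes the letters of a window and is not a measured binding site.

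Among the secreted factors, ADM (ENSG00000148926) rose most. It encodes adrenomedullin, a vasodilator peptide. The 6 hyperoxia samples had 27.35, 29.49, 28.78, 24.82, 31.49 and 23.96 TPM, against 15.67, 14.61, 15.18, 16.17, 15.85 and 17.40 TPM in the 6 normoxia samples. Every hyperoxia sample lay above every normoxia sample. Such separation was seen in 3 members, all higher in hyperoxia (ADM, SLC2A3 and BNIP3), and in 8.78% of all tested genes, 6.2% higher and 2.58% lower. The mean was 27.6 ± 2.87 TPM in hyperoxia and 15.8 ± 0.950 TPM in normoxia (SD, n = 6 each), a ratio of 1.75. This was a log2 fold change of 0.76 (SE 0.07, 95% interval 0.62 to 0.91, limma, Benjamini-Hochberg adjusted p = 8.65e-06), the 40th smallest p of the 14520. It lay between 0.71 and 0.82 under all 24 alternatives and passed in each.

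The related peptide gene ADM2, which encodes intermedin, a peptide that acts on the same receptors, fell. It averaged 3.03 ± 0.487 TPM in hyperoxia and 4.97 ± 0.847 TPM in normoxia (SD, n = 6 each), with a log2 fold change of -0.56 (SE 0.11, limma, Benjamini-Hochberg adjusted p = 0.00448). That call was lost with the exact rank-sum test (adjusted p = 0.0559) and against normoxia replicates 1 to 3 alone (limma adjusted p = 0.0741). The difference in change between ADM and ADM2 was not tested. Their shared receptor gene CALCRL averaged 0.098 TPM in hyperoxia and 0.10 TPM in normoxia, and the co-receptor genes RAMP1, RAMP2 and RAMP3 also averaged under 1 TPM, so these cells had ligand transcripts and almost none of the receptor's.

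VEGFA (ENSG00000112715), the growth factor that drives new blood vessels, did not pass the test. Its lowest, median and highest levels were 24.9, 30.1 and 33.1 TPM in hyperoxia and 28.2, 31.6 and 37.9 TPM in normoxia. The ranges overlapped, with 1 hyperoxia sample below all normoxia samples. Its log2 fold change was -0.08 (95% interval -0.25 to 0.09, limma, Benjamini-Hochberg adjusted p = 0.528), so a change of ADM's size lies outside its interval. Of 7 tested genes of the VEGF ligands and receptors none passed, where 17.3% of all tested genes did. VEGFB, a ligand that is not a classic hypoxia target, averaged 33.1 ± 2.39 TPM in hyperoxia and 36.6 ± 3.25 TPM in normoxia (SD, n = 6 each). The gap between VEGFA and VEGFB on the log2 scale was -0.14 in hyperoxia and -0.20 in normoxia and differed by 0.06 (exact two-sided permutation test, p = 0.396, adjusted over 4 gene pairs 0.528). VEGFA made up 41.6% ± 1.68 of the summed VEGF ligand and PGF transcripts in hyperoxia and 41.7% ± 2.05 in normoxia (SD, n = 6 each).

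ANGPTL4 (ENSG00000167772) encodes a secreted inhibitor of lipoprotein lipase and is also a target of the lipid-sensing PPAR receptors. Its levels ranged from 24.1 to 27.4 TPM in hyperoxia, median 25.9, and from 20.5 to 29.9 TPM in normoxia, median 23.7. All hyperoxia samples lay inside the normoxia range, and the spread was far wider in normoxia (coefficient of variation 4.37% in hyperoxia and 13.6% in normoxia). A log2 fold change of 0.10 did not pass (95% interval -0.06 to 0.26, limma, Benjamini-Hochberg adjusted p = 0.379). Within normoxia the samples split by replicate number, with 20.5 to 22.9 TPM in replicates 1 to 3 and 24.4 to 29.9 TPM in replicates 4 to 6. Against replicates 1 to 3 alone the log2 fold change was 0.24 (limma, Benjamini-Hochberg adjusted p = 0.025), and against replicates 4 to 6 alone it was -0.03 (limma, Benjamini-Hochberg adjusted p = 0.802). ADM was the only other member whose normoxia ranges were apart in this way, 14.6 to 15.7 TPM and 15.8 to 17.4 TPM. That made 2 of 10, counting NDRG1, which gave no value to compare. The share of all tested genes split in this way was not computed, so the count is not read as a trait of the members. Of 7 tested PPAR targets 2 rose, the lipid droplet coat gene PLIN2 (log2 fold change 0.20, limma, Benjamini-Hochberg adjusted p = 0.0117) and the fatty acid oxidation gene ACADVL (log2 fold change 0.16, limma, Benjamini-Hochberg adjusted p = 0.0242), and 5 did not pass, where 11.7% of all tested genes were called higher. The call of PLIN2 was lost against either set of 3 normoxia samples, and that of ACADVL in 4 of 24 alternatives.

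STC2 (ENSG00000113739), which encodes the secreted glycoprotein stanniocalcin 2 and is known as a target of both HIF and ATF4, was the member that fell. The hyperoxia samples had 14.19, 16.6, 20.5, 17.13, 21.62 and 24.18 TPM, against 32.03, 31.95, 20.31, 21.28, 32.94 and 24.6 TPM in the normoxia samples. The groups overlapped: 3 hyperoxia samples lay below every normoxia sample, and 3 normoxia samples lay above 30 TPM while the other normoxia samples lay within or near the hyperoxia range. The mean was 19.0 ± 3.70 TPM in hyperoxia and 27.2 ± 5.80 TPM in normoxia (SD, n = 6 each), a ratio of 0.700. The log2 fold change was -0.49 (SE 0.15, 95% interval -0.80 to -0.17, limma, Benjamini-Hochberg adjusted p = 0.0365). The direction held in all 24 alternatives, while the call was lost in 11 of them. Leaving out any of 6 single samples (hyperoxia 1, 2 or 4, normoxia 1, 2 or 5) gave adjusted p-values up to 0.0825 in limma.

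Its paralog STC1, also a known hypoxia target, rose. STC1 averaged 27.5 ± 1.21 TPM in hyperoxia and 24.0 ± 1.29 TPM in normoxia (SD, n = 6 each), with no overlap and a log2 fold change of 0.19 (SE 0.04, limma, Benjamini-Hochberg adjusted p = 0.0117), lost against normoxia replicates 4 to 6 alone (adjusted p = 0.13 in limma). STC2 was 40.6% ± 4.68 of the summed stanniocalcin transcripts in hyperoxia and 52.6% ± 5.43 in normoxia (SD, n = 6 each), with overlapping ranges of 35.5 to 47.8% and 46.2 to 58.2%. The difference between the paralogs' changes was not tested.

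**Figure D2:**
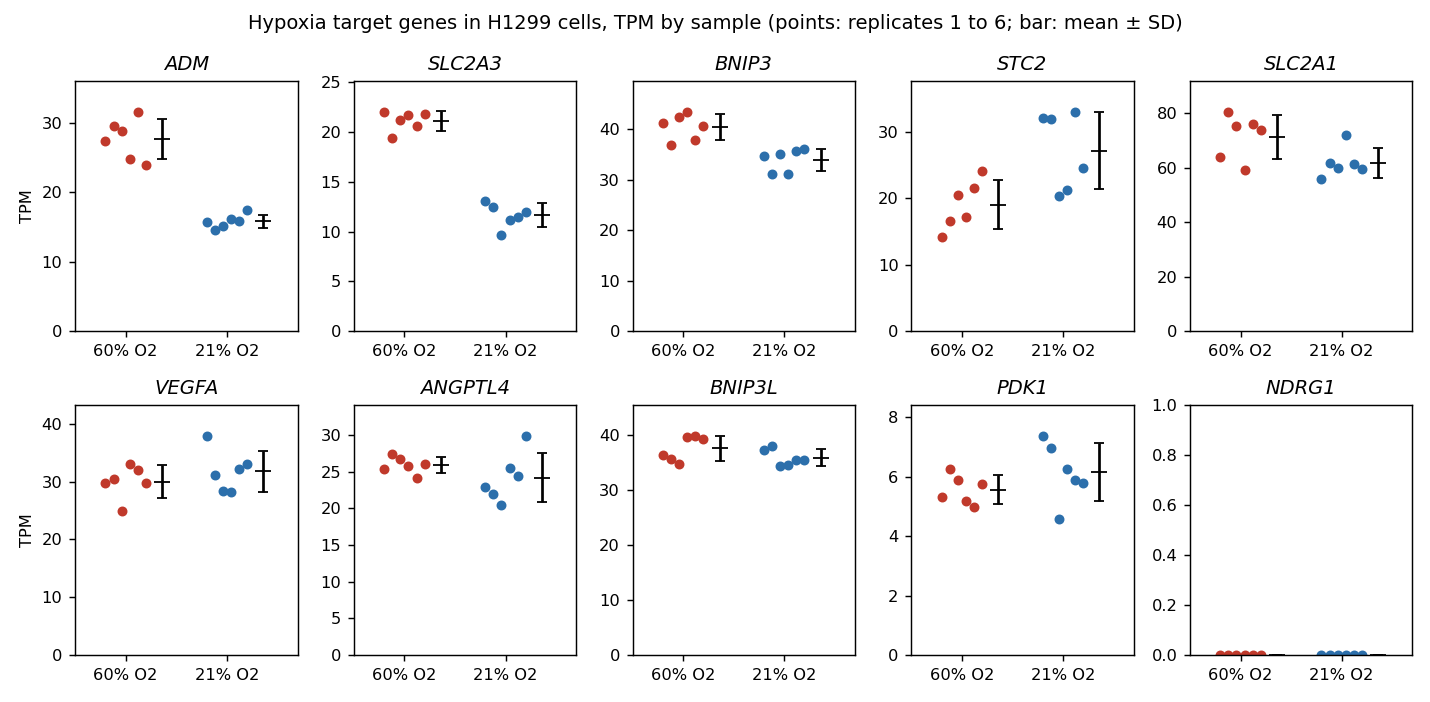
TPM of the 10 genes in every sample (vertical axis, TPM from 0), 60% O2 left and 21% O2 right of each panel; points are replicates 1 to 6 and bars are mean ± SD. ADM, SLC2A3 and BNIP3 show no overlap between groups, STC2 is lower on average with overlap, and NDRG1 is listed at 0 in all 12 samples.

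Of the glucose transporters, SLC2A3 (ENSG00000059804) rose and SLC2A1 (ENSG00000117394) did not pass. SLC2A3 encodes GLUT3, a high-affinity transporter best known from neurons, and SLC2A1 encodes GLUT1, the basal transporter of most cells. SLC2A3 had 21.99, 19.42, 21.18, 21.7, 20.59 and 21.82 TPM in hyperoxia, against 13.05, 12.52, 9.64, 11.15, 11.49 and 12.01 TPM in normoxia. The groups were far apart, and the hyperoxia samples lay close together. The mean was 21.1 ± 0.975 TPM in hyperoxia and 11.6 ± 1.20 TPM in normoxia (SD, n = 6 each), a ratio of 1.81. The log2 fold change was 0.81 (SE 0.06, 95% interval 0.67 to 0.95, limma, Benjamini-Hochberg adjusted p = 4.05e-06), the largest of the 9 and the 26th smallest p of all tested genes.

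SLC2A3 has near-identical copies, and reads could be split among them by the counting. The 4 copies in the table, SLC2A14 and pseudogenes, summed to 6.17 ± 1.28 TPM in hyperoxia and 6.90 ± 1.83 TPM in normoxia (SD, n = 6 each). With these added, the log2 fold change of SLC2A3 was 0.54 and the call held (limma, Benjamini-Hochberg adjusted p = 0.000599). SLC2A14 alone, a transporter gene best known from testis, did not pass (log2 fold change 0.13, limma, Benjamini-Hochberg adjusted p = 0.646).

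SLC2A1 was the most abundant member in both groups. Its levels ranged from 59.2 to 80.2 TPM in hyperoxia, median 74.4, and from 55.7 to 71.8 TPM in normoxia, median 60.4. In hyperoxia 4 of 6 samples lay above all normoxia samples, and normoxia replicate 4 stood alone at 71.83 TPM. With a log2 fold change of 0.20, SLC2A1 did not pass (SE 0.08, 95% interval 0.04 to 0.37, limma, Benjamini-Hochberg adjusted p = 0.0846). It passed without hyperoxia replicate 4 (limma adjusted p = 0.0242) or without normoxia replicate 4 (limma adjusted p = 0.0361).

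Within a sample, SLC2A3 moved up relative to SLC2A1. The log2 gap, SLC2A3 minus SLC2A1, averaged -1.70 ± 0.218 in hyperoxia and -2.31 ± 0.211 in normoxia (SD, n = 6 each). That difference of 0.61 was larger than the spread between samples (exact two-sided permutation test over 924 arrangements, p = 0.00216, the smallest it can give; adjusted over 4 pairs 0.00866). SLC2A3 was 23.0% ± 2.75 of the summed SLC2A1 and SLC2A3 transcripts in hyperoxia and 16.0% ± 2.07 in normoxia (SD, n = 6 each). Of the 5 tested family genes that are no members, SLC2A6, SLC2A8, SLC2A11, SLC2A13 and SLC2A14, none passed, where 17.3% of all tested genes did. SLC2A6, a lysosomal transporter, had the lowest log2 fold change of these, -0.22 (limma, Benjamini-Hochberg adjusted p = 0.135).

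**Figure D3:**
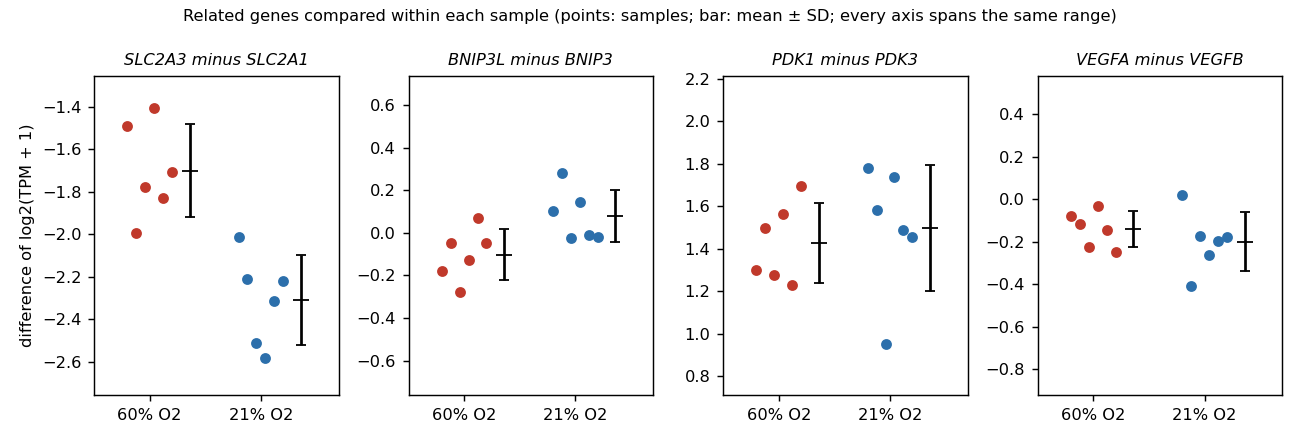
Difference of log2(TPM + 1) between related genes in each sample (vertical axis), 60% O2 left and 21% O2 right; points are samples, bars are mean ± SD and each axis spans the same range. The SLC2A3 minus SLC2A1 gap is higher in hyperoxia by 0.61, BNIP3L minus BNIP3 is lower by 0.18 with overlap, and the PDK1 and VEGFA pairs overlap widely.

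Among the mitochondrial members, BNIP3 (ENSG00000176171) rose by a small amount. BNIP3 and BNIP3L encode outer membrane receptors that mark mitochondria for mitophagy, their removal by autophagy. BNIP3 had 41.25, 36.88, 42.4, 43.33, 37.88 and 40.66 TPM in hyperoxia, against 34.67, 31.2, 34.99, 31.16, 35.58 and 36.01 TPM in normoxia. The groups did not overlap, although the lowest hyperoxia and the highest normoxia samples were less than 1 TPM apart. The mean was 40.4 ± 2.53 TPM in hyperoxia and 33.9 ± 2.18 TPM in normoxia (SD, n = 6 each), a ratio of 1.19. Its log2 fold change was 0.24 (SE 0.05, 95% interval 0.13 to 0.36, limma, Benjamini-Hochberg adjusted p = 0.00655). Against normoxia replicates 4 to 6 alone the change was 0.23 and did not pass (limma, Benjamini-Hochberg adjusted p = 0.0594). The table holds 39 BNIP3 pseudogenes, 15 of them above 0, which summed to 4.16 ± 1.19 TPM in hyperoxia and 4.74 ± 1.02 TPM in normoxia (SD, n = 6 each). With these added the log2 fold change of BNIP3 was 0.20 and still passed (limma, Benjamini-Hochberg adjusted p = 0.0313).

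BNIP3L (ENSG00000104765), also called NIX and needed for clearing mitochondria from maturing red cells, did not pass. Its lowest, median and highest levels were 34.8, 37.8 and 39.8 TPM in hyperoxia and 34.3, 35.4 and 38.1 TPM in normoxia. In hyperoxia 3 samples lay above all normoxia samples and the others lay among them. The log2 fold change was 0.06 (95% interval -0.03 to 0.16, limma, Benjamini-Hochberg adjusted p = 0.366). The gap BNIP3L minus BNIP3 averaged -0.10 ± 0.121 in hyperoxia and 0.08 ± 0.121 in normoxia on the log2 scale (SD, n = 6 each). It differed by -0.18 (exact two-sided permutation test, p = 0.0238, adjusted over 4 pairs 0.0476), and this call was lost on leaving out any of 8 of the 12 samples, with values of -0.21 to -0.14 and adjusted p-values up to 0.0996 in the exact test.

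Of 9 tested mitophagy receptor and adaptor genes, BNIP3 among them, 4 rose and 5 did not pass, where 11.7% of all tested genes were called higher. The others that rose were BCL2L13, an outer membrane receptor (51.8 ± 2.49 TPM in hyperoxia and 42.6 ± 2.63 TPM in normoxia, SD, n = 6 each; log2 fold change 0.28, limma, Benjamini-Hochberg adjusted p = 0.00176), OPTN and PINK1. OPTN, the adaptor optineurin, had a log2 fold change of 0.24 (limma, Benjamini-Hochberg adjusted p = 0.0033). PINK1, the kinase that flags damaged mitochondria, had 0.20 (limma, Benjamini-Hochberg adjusted p = 0.0312), a call lost in 12 of 24 alternatives. FUNDC1, a receptor regulated by hypoxia, had 20.8 ± 0.840 TPM in hyperoxia and 20.7 ± 1.38 TPM in normoxia (SD, n = 6 each; log2 fold change 0.01, limma, Benjamini-Hochberg adjusted p = 0.946).

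PDK1 (ENSG00000152256) encodes pyruvate dehydrogenase kinase 1, which inhibits the pyruvate dehydrogenase complex. It was the least abundant tested member, with 4.99 to 6.27 TPM in hyperoxia, median 5.52, and 4.59 to 7.37 TPM in normoxia, median 6.08. All hyperoxia samples lay within the normoxia range. PDK1's log2 fold change of -0.12 did not pass (95% interval -0.32 to 0.09, limma, Benjamini-Hochberg adjusted p = 0.442). PDK1 minus PDK3, a related kinase, was 1.43 ± 0.186 in hyperoxia and 1.50 ± 0.298 in normoxia on the log2 scale (SD, n = 6 each), a difference of -0.07 (exact two-sided permutation test, p = 0.654, adjusted over 4 pairs 0.654). None of the 9 tested genes of the pyruvate dehydrogenase switch passed, where 17.3% of all tested genes did. The nearest were PDHA1, a subunit of the complex, at 0.15 (limma, Benjamini-Hochberg adjusted p = 0.0837) and PDP1, the phosphatase that opposes the kinases, at -0.16 (limma, Benjamini-Hochberg adjusted p = 0.088). Both passed in some alternatives, PDHA1 in 2 and PDP1 in 4 of 24.

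NDRG1 (ENSG00000104419), a stress-induced cytoplasmic protein gene, was listed at 0 in all 12 samples and gave no value to compare. Its relatives NDRG2, NDRG3 and NDRG4 were measured, and none of the 3 passed, where 17.3% of all tested genes did. NDRG3, whose protein is known to be regulated by oxygen, averaged 35.6 ± 1.10 TPM in hyperoxia and 36.6 ± 2.76 TPM in normoxia (SD, n = 6 each; log2 fold change -0.04, limma, Benjamini-Hochberg adjusted p = 0.658).

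Because TPM are per length, the levels of the members can be ordered, apart from NDRG1, which gave no value to compare. In hyperoxia the order was SLC2A1, BNIP3, BNIP3L, VEGFA, ADM, ANGPTL4, SLC2A3, STC2 and PDK1. Neighbours whose ranges overlapped there were BNIP3 and BNIP3L, VEGFA and ADM, ADM and ANGPTL4, and SLC2A3 and STC2. In normoxia the order was SLC2A1, BNIP3L, BNIP3, VEGFA, STC2, ANGPTL4, ADM, SLC2A3 and PDK1, with overlap between each neighbouring pair from BNIP3L to ANGPTL4. ADM thus stood among VEGFA and ANGPTL4 in hyperoxia and below both in normoxia, while STC2 overlapped SLC2A3 in hyperoxia and stood above it in normoxia.

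Sample by sample, the members also did not vary as a block. Over the 36 pairs of tested members, Pearson's r of deviations from the group means across the 12 samples ran from 0.68 for VEGFA and BNIP3L to -0.70 for SLC2A1 and BNIP3. These are descriptions: the values share their libraries and the common TPM total. For ADM, the tested genes with the most similar deviations were TFB2M (r = 0.92) and CFAP298 (r = 0.91). For SLC2A3 they were TRNP1 (r = 0.95) and SHMT2 (r = 0.94). For BNIP3 they were AL606534.4 (r = 0.87) and KATNAL2 (r = 0.85), and for STC2 PRKCZ-AS1 (r = 0.91) and MICOS13 (r = 0.90). Each value is the highest or next highest r found in a search over all tested genes. With only 12 samples, such a search can give values this high among unrelated genes, so no link is drawn from them.

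The wider set of HIF-linked genes was also mixed. Of 50 further genes on the list, 39 were tested, of which 8 rose, 3 fell and 28 did not pass, where 11.7% of all tested genes were called higher and 5.63% lower. The list had a median log2 fold change of 0.06 beside 0.03 over all tested genes. KDM3A, an oxygen-dependent histone demethylase, had a log2 fold change of 0.28 (limma, Benjamini-Hochberg adjusted p = 0.00293). LOX, the collagen-crosslinking lysyl oxidase, had 0.43 (limma, Benjamini-Hochberg adjusted p = 0.0036). Others that rose were STC1, given above, and EPAS1, PFKFB3, CITED2 and ZNF395, these last 4 named after their values were seen.

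DDIT4, an mTORC1 inhibitor that HIF and ATF4 both induce, fell most on the list. It averaged 38.6 ± 3.96 TPM in hyperoxia and 140.3 ± 39.3 TPM in normoxia (SD, n = 6 each), without overlap, and its log2 fold change was -1.80 (SE 0.15, limma, Benjamini-Hochberg adjusted p = 7.41e-06). VLDLR, a lipoprotein receptor that is on both lists too, fell by 0.42 on the log2 scale (limma, Benjamini-Hochberg adjusted p = 0.00365). The lactate exporter gene SLC16A3 was the other to fall, and it is among 78 genes whose deposited values contradict each other, so no value is given. CA9, the carbonic anhydrase often used as a hypoxia marker, was listed at 0 in all samples. EGLN3, an oxygen-sensing prolyl hydroxylase and a sensitive HIF target, averaged 0.343 TPM in hyperoxia and 0.347 TPM in normoxia and was not tested.

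Glycolytic HIF targets could be read for 7 of 15 tested genes, those whose deposited values do not contradict each other: 2 rose, 1 fell and 4 did not pass. Over all tested genes 11.7% were called higher and 5.63% lower. ALDOA, an aldolase, had a log2 fold change of 0.24 (limma, Benjamini-Hochberg adjusted p = 0.00437), PGAM1 of 0.11 (limma, Benjamini-Hochberg adjusted p = 0.0315) and PGK1, named after its value was seen, of -0.11 (limma, Benjamini-Hochberg adjusted p = 0.038). The call of ALDOA was lost against normoxia replicates 4 to 6 alone (0.18, limma, Benjamini-Hochberg adjusted p = 0.0617), and those of PGAM1 and PGK1 were each lost in 13 of 24 alternatives. LDHA, the lactate dehydrogenase that hypoxia raises, averaged 520.8 ± 30.9 TPM in hyperoxia and 519.1 ± 29.4 TPM in normoxia (SD, n = 6 each; log2 fold change 0.00, limma, Benjamini-Hochberg adjusted p = 0.962).

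**Figure D4:**
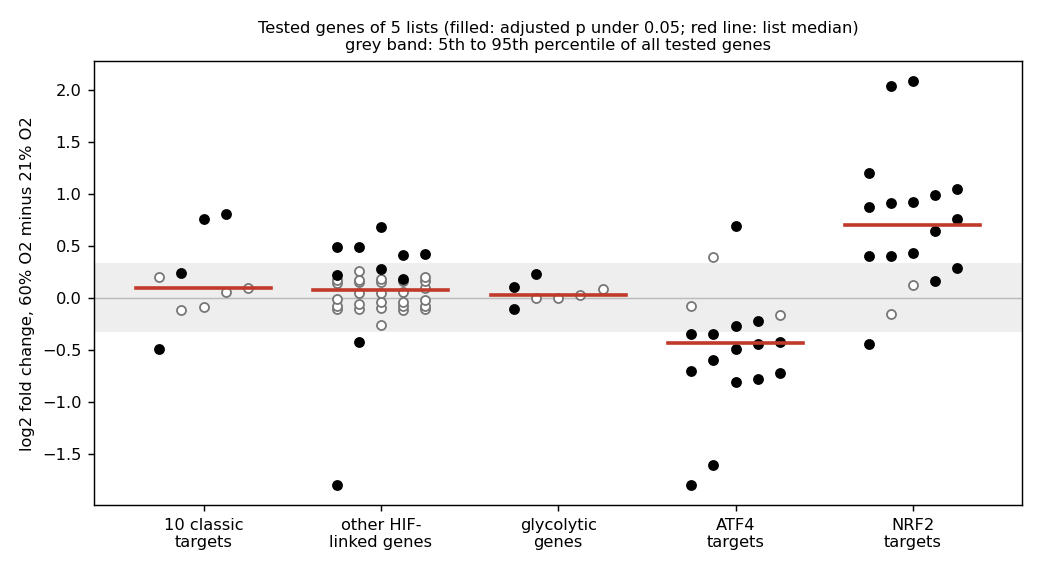
Log2 fold change, 60% O2 minus 21% O2 (vertical axis), of the tested genes of 5 lists, leaving out genes whose deposited values disagree; filled points passed an adjusted p of 0.05, red lines are list medians and the grey band is the 5th to 95th percentile of all tested genes. The classic targets (median 0.10) and other HIF-linked genes (0.08) scatter about 0, ATF4 targets lie mostly below it (-0.43) and NRF2 targets mostly above it (0.71).

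Beside the hypoxia targets, targets of ATF4 mostly fell and targets of NRF2 mostly rose. Of 18 tested ATF4 targets 14 fell, 1 rose (ATF5) and 3 did not pass, with a median log2 fold change of -0.43. CHAC1, a glutathione-degrading enzyme gene, fell by 1.60 on the log2 scale (limma, Benjamini-Hochberg adjusted p = 8.65e-06). Of 18 tested targets of NRF2, the factor behind antioxidant genes, 15 rose, 1 fell (SLC7A11, which is on both lists) and 2 did not pass, with a median of 0.71, where 11.7% of all tested genes were called higher and 5.63% lower. The call of SLC7A11 was lost against normoxia replicates 4 to 6 alone (-0.32, limma, Benjamini-Hochberg adjusted p = 0.0825). These lists were chosen with earlier results of the same samples known, so their counts are not independent evidence of direction, and their part in the change of any hypoxia target was not tested.

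The authors' deposited table gives its own comparison of the same samples. Of the 10 members, 7 had an adjusted p under 0.05 in the authors' deposited table, where 30.0% of the genes tested here did. They were the 4 called above and SLC2A1, VEGFA and PDK1. For STC2 the authors' deposited table gives a log2 fold change of -0.51 and an adjusted p of 2.46e-09. For VEGFA the authors' deposited table gives -0.23 (adjusted p 0.00499), where the log2 ratio of the mean TPM was -0.08, a gap as large as that in 10.5% of genes. None of the 10 carried the authors' call in their deposited table, and NDRG1 was given there as not tested. The smallest absolute log2 fold change among the 357 genes so called was 1.00, above that of every member tested there. The authors' deposited p among those genes reached 0.301, so the call did not require a low p.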

How the data were processed

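Each of 12 samples has a column of TPM, per the file headers. Beside them the authors deposited a fold change as a ratio, the log2 of it, and p-values before and after adjustment. HTSeq 0.9.1 served for counting and edgeR 3.16.5 for normalisation, per the submitters' processing notes. Not given in the sources used here are the aligner, the annotation and the step to TPM. The notes list a mouse build although the gene identifiers are human Ensembl ones, and the labels and the design text name different library kits. Splitting of reads between near-identical genes therefore cannot be checked. In 78 genes, no member among them, the deposited values disagree by more than 0.0001; they stayed in the fit. A row without a gene identifier was left out.

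Groups came from the treatment labels. Genes with a mean of at least 1 TPM were tested with limma 3.58.1 in R 4.3.3 (eBayes with trend) on the log2 of TPM + 1. Two-sided p-values were adjusted by Benjamini-Hochberg over 14520 genes, with calls under 0.05. TPM are relative, so a few abundant genes that rise lower all others. Gene pairs were tested by exact permutation over 924 arrangements. The step was tested on simulated data. Alternatives were other scalings, a mean of 5 TPM as the minimum or none, 0.1 as the pseudocount, eBayes settings, a rank-sum test, a replicate block, added gene copies and leaving out each sample; fits to 3 normoxia samples were added after the data were seen. Members, lists and tests were chosen with earlier results of these data known. Named genes are the members, the genes of each list with the smallest p (up to 4 each way for HIF and glycolytic lists, up to 3 elsewhere), CA9, DDIT4, EGLN3, HK2 and LDHA, and measured family genes; HK2 and others with disagreeing values get no value. Some genes of the lists are counted but not reported here by name.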

Additional observations from a re-analysis of the deposited data

Results flagged for a closer look

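Of the 9 tested members in 2 groups, 1 group had a sample far from the others: SLC2A1 in normoxia, where replicate 4 had 71.83 TPM and the others had 55.7 to 61.6 TPM. Its gap to the next sample was 0.634 of the whole range, above Dixon's 95% critical value for 6 samples, and chance alone marks about 1 group in 20. Without that sample the log2 fold change of SLC2A1 was 0.25 (limma, Benjamini-Hochberg adjusted p = 0.0361), against 0.20 (adjusted p = 0.0846) with it.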

How the results depend on the processing

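ADM, SLC2A3 and the SLC2A3 minus SLC2A1 difference kept direction and call under every alternative run, and VEGFA, BNIP3L, PDK1 and the pairs PDK1 with PDK3 and VEGFA with VEGFB stayed uncalled with their sign. Pair differences had only 13 alternatives, 12 of them leaving out 1 sample. The SLC2A3 minus SLC2A1 difference was not tested with the near-identical copies added. Genes called over the whole table were 2516, or 1375 against normoxia replicates 1 to 3 alone, 1231 against replicates 4 to 6 alone and 1969 to 2456 when 1 sample was left out. Of the calls 67.5% were higher in hyperoxia, 51.7% with median-of-ratios scaling (1323 higher, 1235 lower) and 54.3% with quantile normalisation (1437 higher, 1208 lower). Called members were 4, or 2 against normoxia replicates 4 to 6, and 3 to 5 when 1 sample was left out. Against normoxia replicates 1 to 3 alone they were also 4, but all higher, with ANGPTL4 called and STC2 not.

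The log2 fold change of BNIP3 was 0.23 (adjusted p = 0.0594) against normoxia replicates 4 to 6. That of ANGPTL4 was 0.24 (adjusted p = 0.025) against replicates 1 to 3 and -0.034 (adjusted p = 0.802) against replicates 4 to 6. SLC2A1 ranged from 0.17 to 0.26 when 1 sample was left out. STC2 stayed at -0.49 but was not called without the filter (adjusted p = 0.103), in the exact rank-sum test (adjusted p = 0.151) or in limma with a replicate block (adjusted p = 0.0636). It was -0.53 (adjusted p = 0.103) and -0.44 (adjusted p = 0.148) against normoxia replicates 1 to 3 and 4 to 6, and -0.56 to -0.41 when 1 sample was left out. BNIP3L minus BNIP3 was -0.21 to -0.14. Causes were not tested, except that each subset has fewer samples and the fit without a filter more genes.

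Same-numbered samples did not deviate together (correlations -0.12 to 0.02, 1 hyperoxia sample closest to its own number), so no pairing by number was seen. Such a check cannot exclude that same-numbered samples were grown or handled together, and the labels do not say. With the replicate block 2545 genes and 3 members were called, and the log2 fold change of ADM was 0.76 (limma adjusted p = 0.00116). Depth is unknown in TPM, so counting error could not be given, and NDRG1 has no value to compare.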
